A study of Sus scrofa with 16 samples.

Results

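The genes described here are 10 transcripts commonly used to mark fat cells, followed through RNA-seq of the pig left ventricle to ask how much fat RNA the sampled pieces of heart held. They are ADIPOQ, LEP, PLIN1, PLIN4, CIDEC, FABP4, LIPE, SCD, PCK1 and PPARG, chosen by symbol among the 22629 genes listed, and all 10 were present. The tissue came from 8 White Yorkshire-Landrace farm pigs operated on at 30 days of age (P30). In 4 pigs (numbers 2, 9, 11 and 14) the left anterior descending coronary artery was occluded for 1 h and then released (ischemia/reperfusion, IR), and in the other 4 (numbers 4, 5, 12 and 13) a suture was placed without occlusion (sham). Each surgery group held 2 females and 2 males. After 4 weeks each pig gave 2 pieces of left ventricular wall, the scar zone directly below the suture site and the border zone next to it, so that there were 16 samples, 4 in each combination of surgery and zone. The scar zone of an IR pig also contained viable myocardium, and the scar zone of a sham pig is only the matching location.

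Adipocytes store triglyceride in a large lipid droplet and release it as fatty acids when energy is needed. On the heart they lie mainly beneath the epicardium and along the coronary vessels, so a block of ventricular wall that reaches the epicardial surface can carry some of them. Adiponectin (ADIPOQ) and leptin (LEP) are hormones made by adipocytes, and perilipin 1 (PLIN1) and CIDEC coat or enlarge their droplets. FABP4, PLIN4, LIPE, SCD and PPARG are abundant in fat but not confined to it: capillary endothelium and macrophages also make the fatty acid carrier FABP4, and striated muscle makes PLIN4, another droplet coat protein.

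Total estimated counts ran from 15427663 to 49045206 a sample (median 21822695). CPM are counts scaled to library size. By the plain library total, 3 counts corresponded to between 0.0612 and 0.194 CPM. The CPM values given below used totals multiplied by a TMM scaling factor for each sample (0.883 to 1.175). They are therefore not on exactly the scale of that range. Summed levels of 10 cardiomyocyte markers were 48080 to 64830 TPM, and TNNT2, cardiac troponin T, reached 8379 to 13820 TPM, a scale that corrects for transcript length as well as library size. The scar pieces of IR pigs 9 and 11 stood apart from the other 14 samples. Their summed level of 10 fibroblast markers, collagen genes included, was 10053 and 10323 TPM, against 1414 to 2453 TPM in the rest, among them the scar pieces of IR pigs 2 and 14 (1808 and 1414 TPM). Pigs 9 and 11 were also the only IR males. Their libraries were the deepest, with totals of 33521418 to 49045206 against at most 27088652 in the other pigs. Among IR pigs, sex, depth and fibroblast RNA of the scar piece thus cannot be told apart. The comparisons of IR with sham and of the sexes in the scar zone, of the zones over all pigs, and the relations with ADIPOQ and between zones were repeated without pigs 9 and 11, a choice made after the data were seen.

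The 3 transcripts most closely tied to adipocytes were at trace levels in every sample. Over the 16 samples the median was 0.0868 TPM for ADIPOQ (range 0.0203 to 0.588), 0.0489 TPM for PLIN1 (0 to 0.311) and 0 TPM for LEP (0 to 0.0637). ADIPOQ, PLIN1 and LEP together came to between 4.08 and 123 estimated counts a library, and to between 0.0727 and 0.752 TPM. By contrast FABP4 had a median of 127.8 TPM, above 97.7% of all genes listed. Of the 160 values (10 genes in 16 samples), 12 were 0 and 32 were at or under 3 counts. A count of 0 allows up to 3 counts of the library, a limit that covers counting error only.

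**Figure D1:**
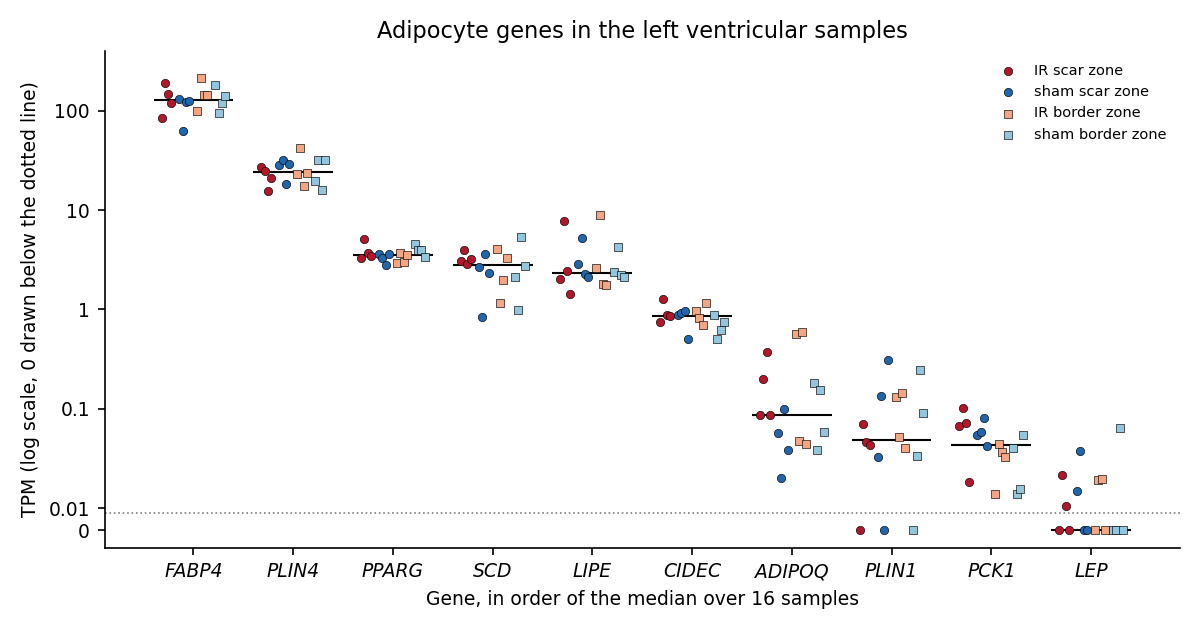
TPM of each of the 10 genes in each of the 16 samples, on a log axis with values of 0 drawn below the dotted line. Circles are scar and squares border zone samples, red and orange are IR and blue sham pigs, and black bars are medians over 16 samples. FABP4 and PLIN4 lie far above the rest, and ADIPOQ, PLIN1, PCK1 and LEP lie below 1 TPM in every sample.

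The order of the medians on the TPM scale was FABP4 (127.8), PLIN4 (24.2), PPARG (3.56), SCD (2.79), LIPE (2.32), CIDEC (0.869), ADIPOQ (0.0868), PLIN1 (0.0489), PCK1 (0.0431) and LEP (0). FABP4 ranged from 62.4 to 211.6 TPM and PLIN4 from 15.6 to 41.8, ranges that overlapped neither with each other nor with that of PPARG (2.78 to 5.09). LIPE (1.41 to 8.82 TPM) likewise stayed above CIDEC (0.502 to 1.27). PPARG, SCD and LIPE overlapped, with PPARG above SCD in 13 of 16 samples and SCD above LIPE in 10. Among the trace transcripts ADIPOQ lay above PLIN1 in 11 of 16 samples and PLIN1 above PCK1 in 10, pairs that were not separable, whereas PCK1 lay above LEP in 15. FABP4 and PLIN4 together made up 89.9% to 95.3% of the summed TPM of the 10 genes (median 93.9%), so that a sum over the list mostly measured those 2 transcripts. The sum itself ran from 105 to 268 TPM, whereas ADIPOQ, PLIN1, LEP and CIDEC together reached only 0.575 to 1.65 TPM.

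ADIPOQ, the adipocyte hormone that raises insulin sensitivity, differed most between pieces. In the scar zone it had 6.17, 23.6, 39.8 and 5.57 estimated counts in IR pigs 2, 9, 11 and 14, and 4.03, 2.07, 11.1 and 4.18 in sham pigs 4, 5, 12 and 13. The border pieces of the same pigs had 42, 6.28, 110 and 3.08 counts (IR) and 17.3, 3.2, 11.4 and 5.07 (sham). Both pieces of IR pig 11 and the border piece of IR pig 2 were the highest, and pigs of both groups were mixed among the lowest. Scaled to library size, IR pigs had 0.346, 0.559, 1.2 and 0.408 CPM in the scar zone and sham pigs 0.181, 0.0863, 0.398 and 0.158 CPM. There 3 of 4 IR values lay above all sham values, and the fourth, pig 2, lay below the highest sham value. The difference of means was 1.28 on the log2 CPM scale (IR -0.64 ± 0.71, sham -1.92 ± 0.64, SD, n = 4 each), with a two-sided exact permutation p of 0.0571, where 0.0286 is the smallest that 4 against 4 allows. Without pigs 9 and 11 it was 0.79 (exact permutation p = 0.267, smallest possible 0.0667). On the log2(TPM + 0.1) scale the difference was 0.81 over all 8 pigs (exact permutation p = 0.0857), and 2 of 4 IR values lay above all sham values.

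The droplet proteins and leptin were set beside ADIPOQ piece by piece. PLIN1, the droplet coat protein that gates lipolysis, had 0, 3, 2 and 1 counts in the scar zone of IR pigs 2, 9, 11 and 14 and 1, 5, 0 and 12 in that of sham pigs 4, 5, 12 and 13. Their border pieces had 4, 2, 10 and 1 PLIN1 counts in the IR pigs and 0, 1, 7 and 3 in the sham pigs. Its highest value was thus in a sham scar piece (pig 13) in which ADIPOQ had 4.18 counts. LEP, which signals the size of fat stores, had at most 4 counts (sham pig 12, border zone) and was at 0 in 9 of 16 samples. CIDEC, which helps droplets to fuse, was steadier, with 15 to 58 counts and 0.768 to 1.69 CPM over all samples. Across the 8 pigs, r with ADIPOQ (log2 CPM) was -0.50 for PLIN1, -0.34 for LEP and 0.09 for CIDEC among scar pieces, and 0.44, 0.17 and 0.33 among border pieces (two-sided exact permutation p between 0.21 and 0.828). PLIN1 was at or under 3 counts in 11 of 16 samples and LEP in 15, so that these values cannot show whether either varied with ADIPOQ. In the border zone the highest PLIN1 counts (10, 7 and 4) were in pigs 11, 12 and 2, which were among the 4 pigs with the most ADIPOQ there.

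**Figure D2:**
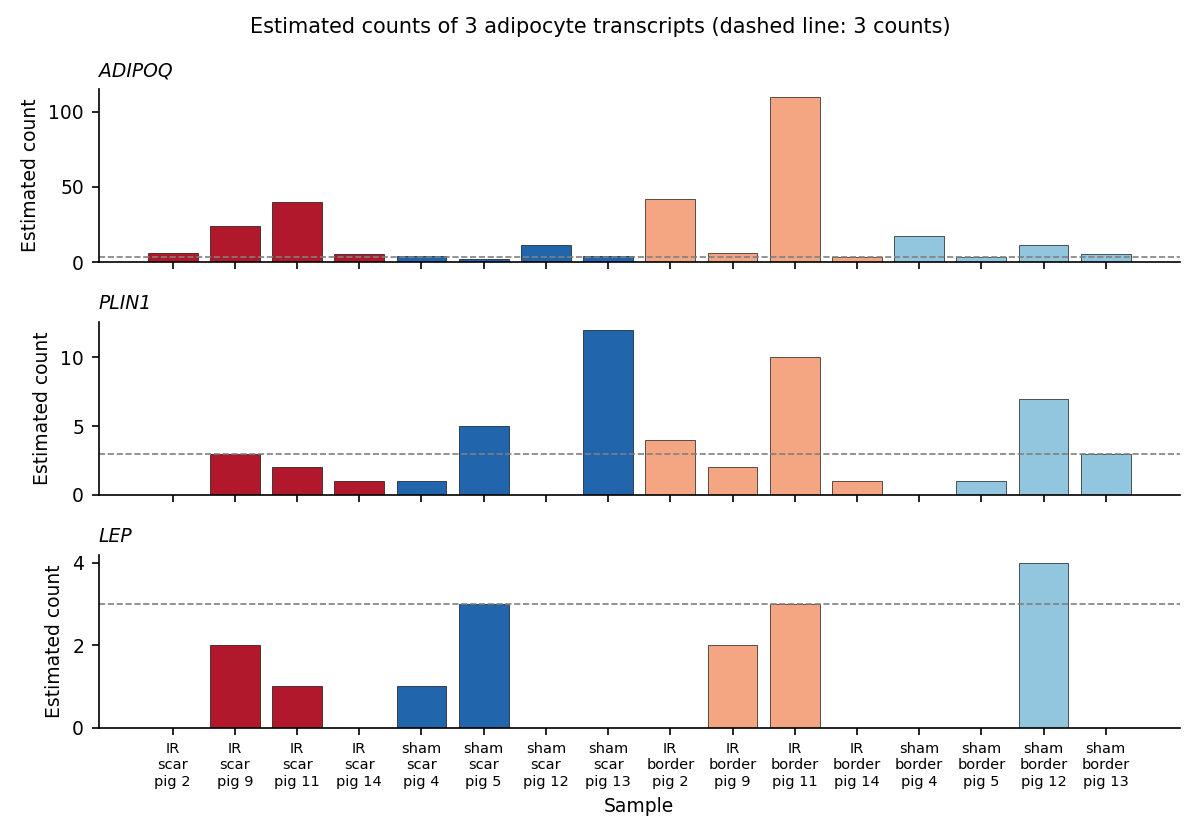
Estimated counts of ADIPOQ, PLIN1 and LEP in each of the 16 samples, 1 bar a sample on axes that start at 0, with a dashed line at 3 counts. The highest ADIPOQ bars (pig 11 border, pig 2 border, pig 11 scar) and the highest PLIN1 bar (sham pig 13 scar, 12 counts) belong to different samples, and LEP exceeds 3 counts in 1 sample.

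Markers of the epicardial surface were measured beside ADIPOQ because subepicardial fat lies there. The summed level of 8 listed epicardial and mesothelial markers was 54.2 and 42.1 TPM in the scar pieces of IR pigs 9 and 11 and 25.9 and 23.6 TPM in the border pieces of IR pigs 2 and 11. The other 12 samples lay between 8.16 and 17.7 TPM. KRT8, a keratin of simple epithelia, made up most of the border sums, with 20.3 TPM in pig 2 and 16.4 TPM in pig 11. In the border piece of pig 2, WT1 (2.31 TPM), TBX18 (1.56 TPM) and UPK1B (0.466 TPM), which mark epicardium or mesothelium, were below their medians over all samples (2.58, 2.19 and 0.732 TPM), whereas KRT18, the partner of KRT8 in filaments, and LRRN4 had their highest values of all samples there (1.15 and 0.12 TPM). LRRN4 was nearly as high in the scar piece of IR pig 14 (0.118 TPM), and BNC1 and CALB2 of the same list were at 0 TPM in the border piece of pig 2. The 2 highest values of each of WT1, TBX18 and UPK1B were in the scar pieces of pigs 9 and 11. The 4 pieces with the highest sums included the 3 with the most ADIPOQ. Across the 8 pigs, a relation added after the data were seen, KRT8 and ADIPOQ (log2 CPM) had r = 0.803 among border pieces (exact permutation p = 0.0196, adjusted over 2 zones 0.0393, Spearman rho = 0.405, exact permutation p = 0.327, adjusted 0.327). Leaving out the 2 pigs farthest from the ADIPOQ median gave r = 0.157 among border pieces. Leaving out pigs 9 and 11 gave r = 0.683 there (exact permutation p = 0.132, adjusted 0.264, rho = 0.2, exact permutation p = 0.714). Among scar pieces r was 0.591 (exact permutation p = 0.119, adjusted 0.119, rho = 0.405, exact permutation p = 0.327, adjusted 0.327), 0.442 without the 2 farthest pigs, and -0.175 without pigs 9 and 11 (exact permutation p = 0.742). CALB2 and LRRN4, which mark mesothelium, each had a median of 0 TPM, while KRT8 had a median of 5.18 TPM (range 2.19 to 30.2).

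The first comparison asked whether IR and sham hearts differed in these transcripts 4 weeks after injury. None of the members passed an adjusted p of 0.05 with a fold change of 2 in either zone by edgeR's quasi-likelihood test, by DESeq2 or by limma. In the scar zone 6 of 10 members had enough counts to be tested (PLIN4, CIDEC, FABP4, SCD, PPARG and LIPE), and 0 of 6 passed even an unadjusted p of 0.05, a mark that 11.2% of the 14023 genes tested reached. It was again 0 of 6 without pigs 9 and 11, against 5.48% of 14192 genes. With the fold change of 2 as well, 3.35% of all genes passed unadjusted, and 0% after adjustment, the smallest adjusted p over all genes being 0.414. In the border zone 7 of 10 members were tested, ADIPOQ now among them, and 0 of 7 passed unadjusted, against 3.78% of the 13728 genes tested. Fewer cells of a type and less RNA per cell cannot be told apart in bulk tissue, here or in the comparisons that follow.

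**Figure D3:**
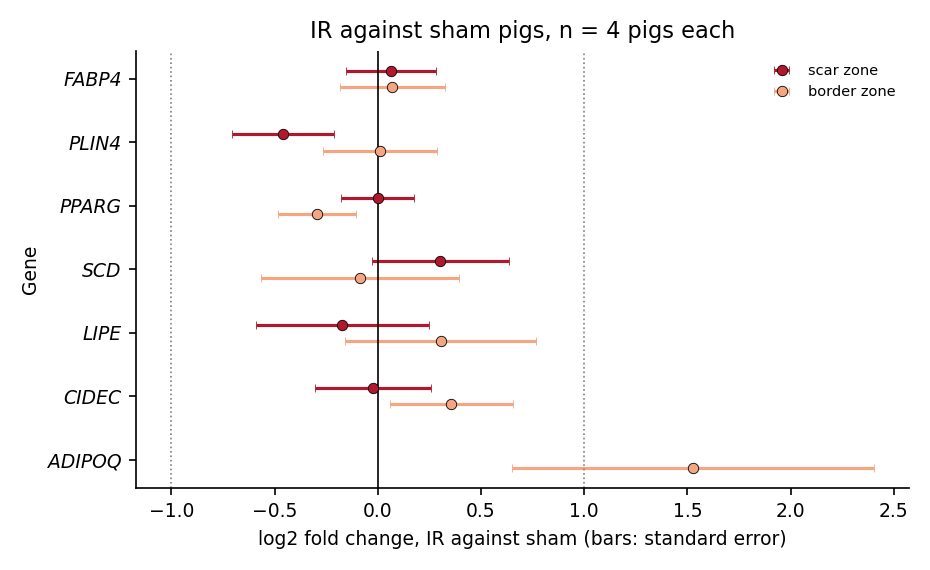
Log2 fold change of IR against sham pigs (edgeR, horizontal axis) for the 7 members tested, for scar (dark red) and border (orange) pieces, 4 pigs a group. Points are estimates, bars standard errors and dotted lines a fold change of 2; ADIPOQ had too few counts for the scar zone test, and its border zone estimate of 1.53 has the widest bar.

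Of the droplet proteins, PLIN4 had the lowest scar zone estimate among the tested members. It had 153, 95.5, 78.2 and 126 CPM in the scar zone of IR pigs 2, 9, 11 and 14, and 149, 194, 103 and 172 CPM in that of sham pigs 4, 5, 12 and 13. In CPM, IR pigs 9 and 11 lay below all sham pigs and the other IR pigs lay among them. On log2(TPM + 0.1) only 1 IR pig lay below all sham pigs, and the difference of means was -0.28 (exact permutation p = 0.286). The edgeR log2 fold change of PLIN4 was -0.46 (SE 0.25, adjusted p = 0.486). Its difference of means in log2 CPM, -0.46 over all pigs, shrank to -0.12 without pigs 9 and 11 (exact permutation p = 0.8). PLIN4 passed an unadjusted p of 0.05, but not adjustment, with sex as a covariate, with 1 factor of unwanted variation, and without pig 2 or pig 12, fits in which 15.8%, 16.8%, 18.2% and 7.92% of all genes did so. Border values of PLIN4 were 129, 217, 107 and 130 CPM in the IR pigs and 125, 185, 84.7 and 182 CPM in the sham pigs, with a log2 fold change of 0.01 (SE 0.28). CIDEC had log2 fold changes of -0.02 (SE 0.28) in the scar and 0.36 (SE 0.30) in the border zone.

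FABP4 carries fatty acids inside the cell. It was at 63.6, 94.8, 97.2 and 94.9 CPM in the scar zone of IR pigs 2, 9, 11 and 14 and at 92.5, 50.9, 91.3 and 98.5 CPM in that of sham pigs 4, 5, 12 and 13. In each group 1 pig lay far below the other 3, pig 2 among IR and pig 5 among sham pigs, and the groups overlapped throughout. The log2 fold change of FABP4 was 0.07 in both zones (SE 0.22 and edgeR adjusted p = 0.908 for the scar, SE 0.26 and 0.994 for the border zone). PPARG, the nuclear receptor that directs adipocyte differentiation, had log2 fold changes of 0.00 (SE 0.18) and -0.30 (SE 0.19). Its border zone values were 4.15, 4.64, 4.5 and 4.79 CPM in IR and 6.96, 5.58, 5.15 and 4.52 CPM in sham pigs, with 3 sham pigs above all IR pigs and an exact permutation p of 0.0857.

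Among the lipid enzymes, LIPE (hormone-sensitive lipase) and SCD (stearoyl-CoA desaturase, which makes monounsaturated fatty acids) each had values that set particular pigs apart. LIPE was at 4.62, 11.3, 5.15 and 3.47 CPM in the scar zone of IR pigs 2, 9, 11 and 14 and at 6.01, 12, 4.99 and 4.86 CPM in that of sham pigs 4, 5, 12 and 13. The border pieces of these pigs had 5.7, 17.3, 4.2 and 4.21 CPM (IR) and 5.98, 9.88, 4.86 and 4.74 CPM (sham). IR pig 9 and sham pig 5 were thus the highest of their groups in both zones. The log2 fold changes of LIPE, -0.17 (SE 0.42) in the scar and 0.30 (SE 0.46) in the border zone, turned to 0.22 without pig 5 and to -0.43 without pig 9.

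SCD was lowest in sham pig 5, with 4.36 CPM in the scar and 4.81 CPM in the border zone. The border piece of IR pig 9 had a similar 5.09 CPM, whereas its scar piece had 12.9 CPM. The remaining values lay between 10.3 and 24.3 CPM, the highest in the border zone of sham pig 12. The log2 fold change of SCD was 0.30 (SE 0.33, edgeR adjusted p = 0.704) in the scar and -0.09 (SE 0.48, adjusted p = 0.995) in the border zone. PCK1, which feeds glyceroneogenesis in fat and gluconeogenesis in liver, had 1 to 10.6 counts a library and was tested only in fits that kept low counts, where its log2 fold changes of IR against sham were -0.05 (SE 0.55) in the scar and 0.11 (SE 0.71) in the border zone.

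ADIPOQ in the border zone had 2.03, 0.171, 2.54 and 0.175 CPM in IR pigs 2, 9, 11 and 14 and 0.827, 0.154, 0.534 and 0.222 CPM in sham pigs 4, 5, 12 and 13. Pigs 2 and 11 exceeded all sham pigs and pigs 9 and 14 were among the lowest. The log2 fold change of 1.53 (SE 0.88, edgeR adjusted p = 0.988) accordingly had the largest standard error of the members tested. It ran from 0.83 to 2.03 when each pig was left out, and passed an unadjusted p with a fold change of 2, but not adjustment, without pig 9 or pig 14, as did 1.46% and 1.41% of all genes. In the scar zone ADIPOQ had too few counts for the test. With low counts kept, its log2 fold change was 1.58 (SE 0.59, unadjusted p = 0.0225, edgeR adjusted p = 0.444), and in a fit of all 16 samples 1.61 (SE 0.85, edgeR adjusted p = 0.412). It also entered the scar zone fit without pig 2, 4, 5 or 14, at log2 fold changes of 1.79, 1.54, 1.36 and 1.74, each past an unadjusted p with a fold change of 2 and none after adjustment (edgeR adjusted p from 0.216 to 0.782). In those 4 fits 5.46%, 3.26%, 2.32% and 5.80% of all genes passed that mark. All 4 kept pigs 9 and 11, the IR pigs with the most ADIPOQ in the scar zone, and ADIPOQ was not tested in the fit without either of them. These passes therefore cannot show whether the difference holds without those pigs. The test of whether the IR effect differed between zones gave no call among 7 members, with an ADIPOQ estimate of 0.10 (SE 1.04, edgeR adjusted p = 1.00). At an unadjusted p of 0.05 it passed 0 of the 7, against 2.22% of all genes.

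The second comparison set the scar piece against the border piece of the same heart. With all 16 samples and surgery as a covariate, 0 of 7 members tested were called, and 0 passed an unadjusted p of 0.05, against 3.89% of 14278 genes. With the pig as replicate block, which matches the 2 pieces of a heart, 1 of 7 passed unadjusted (FABP4), against 11.3% of all genes, and 0 passed after adjustment, against 0.014%. In log2 CPM, FABP4 was lower in the scar than in the border piece in 7 of 8 pigs, as were 5.97% of all genes in at least 7 pigs. On log2(TPM + 0.1) FABP4 was lower in 6 of 8 pigs, with a mean difference of -0.23 (exact sign-flip permutation p = 0.0312). Its differences on the log2 CPM scale were -0.21, -0.60, -0.26 and -0.17 in IR pigs 2, 9, 11 and 14 and -0.77, -0.53, 0.12 and -0.08 in sham pigs 4, 5, 12 and 13. The mean was -0.31 ± 0.30 (SD, n = 8), with an exact sign-flip permutation p of 0.0234, which became 0.234 after adjustment over 10 members. Without pigs 9 and 11 the mean was -0.27 ± 0.32 (n = 6, exact permutation p = 0.0938), and with the replicate block FABP4 and ADIPOQ were the 2 of 7 past an unadjusted p, against 8.46% of all genes. The edgeR estimate for FABP4 was -0.33 (SE 0.18, adjusted p = 0.997) and with the replicate block -0.31 (SE 0.09, adjusted p = 0.398). It was -0.33 in both IR and sham pigs taken alone, and ran from -0.40 to -0.22 and from -0.47 to -0.12 when each pig was left out. With the replicate block FABP4 was the 1 of 7 members past an unadjusted p of 0.05 in IR pigs (11.3% of genes) and the 1 of 6 in sham pigs (4.77%), and 0 were called in either. Endothelial cells and macrophages also make FABP4. The median log2 fold change between zones was -0.01 for 9 endothelial and 0.13 for 9 leucocyte markers, and their part in the FABP4 values was not tested.

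**Figure D4:**
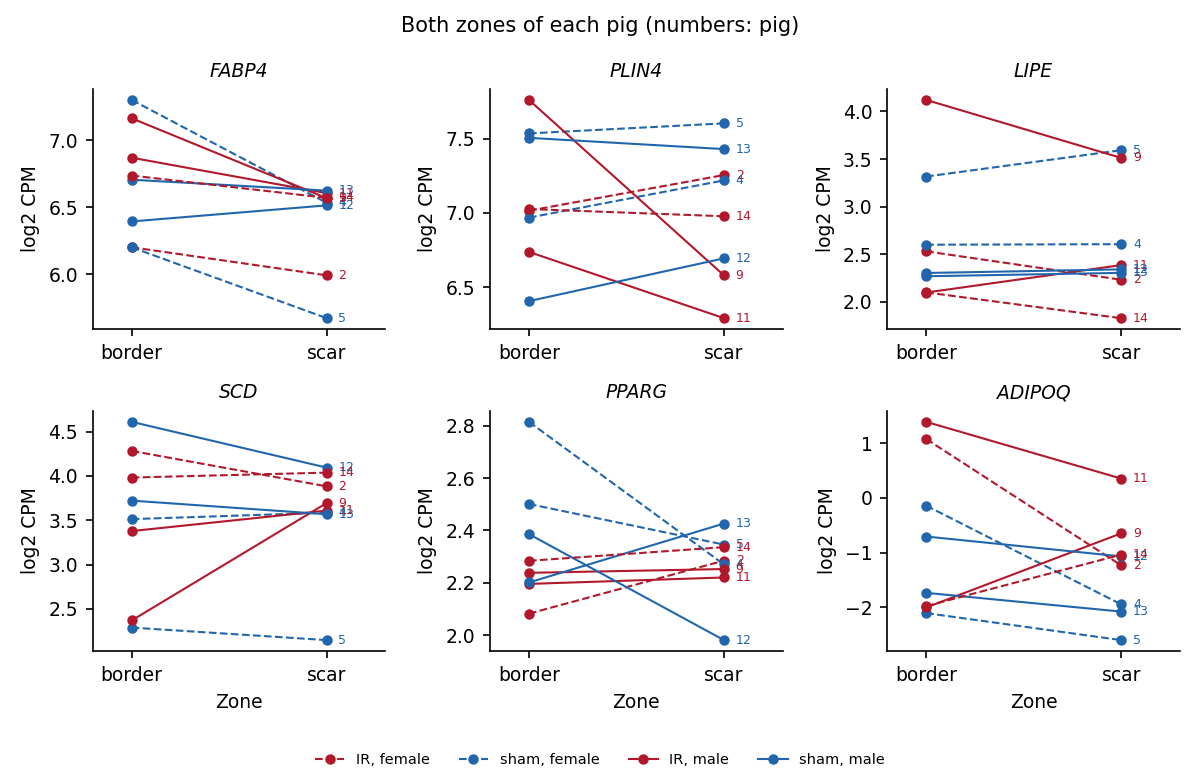
Log2 CPM of 6 members in the border (left) and scar (right) piece of each pig, joined by a line and numbered by pig; red is IR, blue sham, solid male and dashed female. FABP4 falls from border to scar in 7 of 8 pigs, and LIPE is highest in pigs 5 and 9 in both zones.

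PCK1 was higher in the scar piece of 6 of 8 pigs (mean 0.60 ± 0.69 on the log2 CPM scale, exact permutation p = 0.0469, adjusted over 10 members 0.234), from at most 10.6 counts a library. With low counts kept, its edgeR log2 fold change between zones was 0.88 (SE 0.39, unadjusted p = 0.0347, adjusted p = 0.913), the 1 of 10 members past an unadjusted p in that fit, as were 787 of 19029 genes. ADIPOQ was lower in the scar piece of 6 of 8 pigs, with a mean of -0.51 ± 1.24 (exact permutation p = 0.281). The largest ADIPOQ differences were in IR pig 2 (-2.31) and sham pig 4 (-1.80). PLIN4 was lower in 4 pigs and higher in 4, and SCD likewise. Whether within-pig differences were unlike in IR and sham pigs was tested for each of the 10 members, and the smallest exact permutation p was 0.143 (LIPE). On log2(TPM + 0.1) it was 0.0571 (PPARG). With each pig left out in turn, the smallest was 0.0286, for LIPE without pig 11 and PPARG without pig 13, adjusted neither for members nor for pigs left out.

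The third comparison asked whether members that mark fat varied together between pieces, as a measure of unequal fat content would need. Of 18 relations with ADIPOQ (9 members in 2 zones), 1 passed adjustment, and it was negative. In the scar zone PLIN4 was lower where ADIPOQ was higher, with Pearson r = -0.943 (exact permutation p = 0.000471, adjusted 0.00848) and Spearman rho = -0.952 (exact permutation p = 0.00114, adjusted 0.0205) over 8 pigs. Sham pig 5 had the least ADIPOQ (0.0863 CPM) and the most PLIN4 (194 CPM), and IR pig 11 the reverse (1.2 and 78.2 CPM). Leaving out the 2 pigs farthest from the ADIPOQ median gave r = -0.855, and deviations from the surgery group means gave r = -0.958. Without pigs 9 and 11, r was -0.861 (exact permutation p = 0.0306, adjusted 0.183), and the relation no longer passed adjustment. In that subset the scar zone relation of ADIPOQ with SCD was positive, r = 0.891 (exact permutation p = 0.00278, adjusted 0.05), and just met the adjusted limit of 0.05. As a description, 0.119% of 14277 other genes had an r with ADIPOQ as low as PLIN4 among scar pieces, and 10.2% among border pieces, where r for PLIN4 was -0.614 (exact permutation p = 0.11). ADIPOQ had 2.07 to 39.8 counts in these scar samples. The log2 library total had r = 0.416 with ADIPOQ and -0.573 with PLIN4 in the scar zone, and its part in the relation was not tested.

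**Figure D5:**
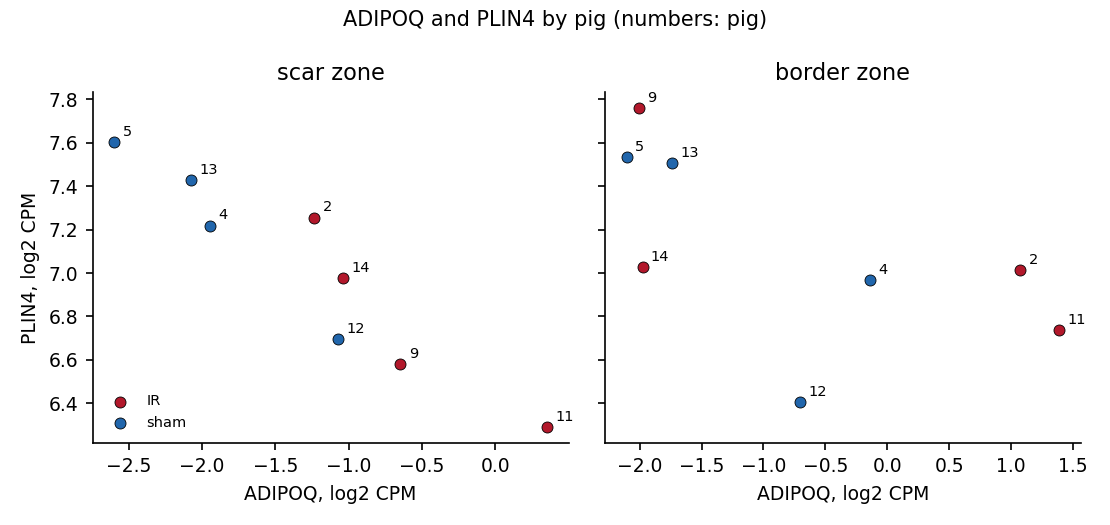
PLIN4 against ADIPOQ, both in log2 CPM, for scar (left) and border (right) pieces; each point is a pig, numbered, red for IR and blue for sham. In the scar zone the points run from pig 5 at top left to pig 11 at bottom right (r = -0.943); in the border zone they scatter more (r = -0.614).

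Among genes listed by symbol, those whose pattern was most like that of ADIPOQ, ranked by the smaller of the 2 zone correlations over 8 pigs each, were IFNGR1 (smaller r 0.857), PCYOX1 (0.840), EIF4EBP1 (0.839), HIST1H1E (0.838), HIST2H2BE (0.837), PPIC (0.831), C2CD3 (0.825), GM2A (0.820), ARID5A (0.817) and NARS (0.816). Of the 14277 genes ranked, those at ranks 1 and 10 are listed by identifier only and are not named. The 6 members ranked beside ADIPOQ were not near the top, and PLIN1, LEP and PCK1 had too few counts for a rank. The best placed was SCD at rank 1215, followed by CIDEC at 3486 and FABP4 at 4687, and PLIN4 stood at 14247.

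Levels in the 2 pieces of a heart were also compared across pigs, a comparison added after the data were seen. LIPE had r = 0.901 between scar and border zone (exact permutation p = 0.00687, adjusted over 10 members 0.0541, Spearman rho = 0.667, exact permutation p = 0.0831), which fell to 0.572 without pigs 5 and 9. SCD had r = 0.733 (exact permutation p = 0.0108, adjusted 0.0541, rho = 0.738, exact permutation p = 0.0458), and 0.453 without the 2 pigs farthest from its median. FABP4 had r = 0.715 (exact permutation p = 0.0516, rho = 0.548, exact permutation p = 0.171). PLIN4 had r = 0.403 (exact permutation p = 0.317), CIDEC r = -0.29 and PPARG r = -0.10. Over the 6 pigs other than 9 and 11, r was 0.964 for LIPE, 0.958 for SCD and 0.935 for PLIN4, and these 3 passed adjustment (exact permutation adjusted p = 0.0324 each). Over all 8 pigs and all 14278 expressed genes the median r between zones was 0.582, with quartiles of 0.303 and 0.773. There LIPE stood above 92.3% of genes, SCD above 69.2% and PLIN4 above 32.4%. The matching shares were not computed for the 6 pigs.

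Females were compared with males because body fat can differ by sex. With surgery as a covariate, 0 of 6 members were called for scar and 0 of 7 for border pieces, against 0.0856% and 0.0801% of all genes. PLIN4 was higher in females in the scar zone by a log2 fold change of 0.51 (SE 0.19, edgeR unadjusted p = 0.0269, adjusted 0.211), the 1 of 6 members past an unadjusted p of 0.05, against 19.7% of all genes. Female scar pieces had 153, 126, 149 and 194 CPM (pigs 2, 14, 4 and 5) and male ones 95.5, 78.2, 103 and 172 CPM (pigs 9, 11, 12 and 13). Male pig 13 lay above 3 of the females. PLIN4 lost that unadjusted mark without pig 2, 5, 11 or 12 and with limma on both TPM scales, at 0.30 and 0.32. There FABP4 was the 1 of 5 members past it, beside 18.2% and 18.1% of all genes, lower in females by limma estimates of -0.59 on both scales (adjusted p = 0.234 and 0.233). Without pig 4, ADIPOQ, FABP4 and PLIN4 were the 3 of 7 members past it in the scar zone, beside 21.5% of all genes. In the border zone FABP4 was then the 1 of 7, beside 7.17%, and 0 were called in either zone. With pigs 9 and 11 left out, both remaining IR pigs were female, so the sexes were compared among sham pigs. The PLIN4 log2 fold change was then 0.33 (SE 0.26, edgeR adjusted p = 0.625), and LIPE was the 1 of 6 members past an unadjusted p, against 12.2% of all genes. For border pieces the PLIN4 log2 fold change between sexes was -0.03 (SE 0.29).

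A wider set of 60 symbols of adipocyte and lipid storage genes had 53 listed here, and its levels were as unequal as those of the 10. RETN (resistin), TRARG1 and ACVR1C, all enriched in fat, had a median of 0 TPM, and LGALS12, an adipocyte galectin, had 0.217 TPM. Genes that heart muscle and its vessels also use were abundant, such as LPL (lipoprotein lipase, median 421.1 TPM), CAV1 (caveolin 1, 257.6 TPM), MGLL (monoglyceride lipase, 146.6 TPM) and SLC2A4 (the insulin-responsive glucose transporter, 78.3 TPM). PNPLA2, which starts triglyceride breakdown, had 36.5 TPM. Of genes named for their tie to fat, CFD (adipsin) had a median of 29.7 TPM (range 20.6 to 49.8), GPD1 8.29, CIDEA 2.08 and CEBPA 1.13 TPM. AQP7, ADRB3, CD36, ADIPOR1, UCP1 and GPIHBP1 were not analysed here.

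In the scar zone, 0 of 50 tested genes of the wider set were called by edgeR, and DESeq2 called 1, DIO2, beside 0.372% of 13973 genes. At an unadjusted p of 0.05, 0 were higher and 7 lower in IR pigs (beside the 11.2% of all genes past that mark in either direction). In all, 14 had positive and 36 negative estimates, with a median log2 fold change of -0.20 against 0.03 over all genes. DIO2, which activates thyroid hormone, had 0.0951 to 0.20 TPM in IR and 0.24 to 0.737 TPM in sham scar pieces, groups that did not overlap (2.65% of all genes were lower in IR with no overlap). Its log2 fold change was -2.02 (SE 0.41, edgeR unadjusted p = 0.000737, adjusted 0.438, DESeq2 adjusted p = 0.00507). RXRG, a partner of PPARG on DNA, had a log2 fold change of -1.38 (SE 0.41, edgeR adjusted p = 0.438) and CEBPB, an early adipogenic factor, -0.59 (SE 0.21, edgeR adjusted p = 0.438). Without pigs 9 and 11, 0 of 50 were higher and 4 lower at an unadjusted p (5.48% of all genes in either direction), the median was -0.14, and the log2 fold changes of DIO2, RXRG and CEBPB were -2.03, -1.23 and -0.56 (edgeR adjusted p from 0.907 to 0.921). In the border zone 0 of 49 were called, with 1 higher and 2 lower at an unadjusted p of 0.05, beside 3.78% of all genes in either direction. Beside these values, all 10 fibroblast markers had positive scar zone estimates, with a median log2 fold change of 0.92, as had all 9 leucocyte markers tested, with a median of 0.43, and 8 of 9 endothelial markers negative ones, with a median of -0.17. The 10 cardiomyocyte markers had a median of -0.25, with 4 positive and 6 negative estimates. The medians were, with pigs 9 and 11 left out, -0.18 for fibroblast, 0.12 for leucocyte and -0.03 for cardiomyocyte markers, and 0.00 for endothelial markers, of which 5 were positive and 4 negative. The part of these in the values of the wider set was not tested.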

How the data were processed

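Polyadenylated RNA of the 16 pieces was made into stranded TruSeq libraries and read as paired ends. Per the labels and the study's methods, the authors trimmed reads with Trimmomatic 0.33, aligned with HISAT2 2.0.5 and quantified with kallisto 0.43.1 on pig cDNA sequences; the genome build is not given in the sources used here. The deposited tables hold estimated counts, which were rounded to whole numbers here for the count tests, and TPM. Of the genes, 7534 are listed by identifier only. All 10 members matched RefSeq symbols.

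Groups were compared with edgeR 4.0.16 (quasi-likelihood test, TMM scaling, filterByExpr with a minimum count of 10 and total of 15, R 4.3.3), Benjamini-Hochberg adjusted over all genes tested. A call needed an adjusted p no higher than 0.05 together with a fold change no smaller than 2. CPM used library totals adjusted by the TMM factors, and log2 CPM a prior count of 2. Single members were tested with two-sided exact permutations of pigs. Each number is a pig, so scar and border samples with the same number are paired; the correlation of their deviations from group means was 0.354 to 0.692. Samples of a group are separate pigs. DESeq2 1.42.0, limma 3.58.1 on log2(TPM + 1) and log2(TPM + 0.1), other scalings, no filter, 1 factor of unwanted variation leaving out each pig and, added after seeing the data, leaving out pigs 9 and 11 were tried. The fits were tested on simulated data.

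The members, the wider adipocyte set and the fibroblast, endothelial, leucocyte, epicardial and cardiomyocyte marker lists were chosen with earlier results of these data known. Named genes were all 10 members, the 3 genes of the wider set with the smallest unadjusted p in the scar zone, and the 10 genes listed by symbol most like ADIPOQ, ranked among all genes tested. Others named for their level, and the markers beside a result, were chosen after their values were seen.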

Additional observations from a re-analysis of the deposited data

Results flagged for a closer look

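In each of 40 groups (10 genes, 4 combinations of surgery and zone, 4 pigs each) the sample farthest from the rest was examined by the share of the group's range that separated it from its nearest neighbour, against Dixon's critical value for 4 samples. About 1 group in 20, or 2 of 40, would pass by chance if groups were independent and values normally distributed. The same pigs recur across groups and some counts are near 0, so no excess can be read from the 7 that passed. Of these, 3 rest on very few counts. PLIN1 was at 0 CPM in the scar zone of IR pig 2, against 0.0599 to 0.0699 CPM in the other IR pigs. LEP was at 0.194 CPM in the border zone of sham pig 12 and 0 in the other sham pigs. PCK1 was at 0.0681 CPM in the scar zone of IR pig 14, against 0.231 to 0.256 CPM.

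The other 4 concern well-measured genes. FABP4 was at 63.6 CPM in the scar zone of IR pig 2 (others 94.8 to 97.2) and at 50.9 CPM in that of sham pig 5 (others 91.3 to 98.5). LIPE was at 17.3 CPM in the border zone of IR pig 9 (others 4.2 to 5.7) and at 12 CPM in the scar zone of sham pig 5 (others 4.86 to 6.01).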

How the results depend on the processing

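The count of members called stayed at 0 in all 8 comparisons of groups under each alternative run, the replicate block the fits without each pig and those without pigs 9 and 11 included. Estimates near 0 changed sign, none of them called. PLIN4, IR against sham in the border zone, was -0.01 with 1 factor of unwanted variation. Between zones over all pigs, SCD was 0.09 and 0.14 with limma on log2(TPM + 1) and log2(TPM + 0.1) and 0.06 with the replicate block, and LIPE was 0.02 and 0.03 with limma. Without pigs 9 and 11, FABP4 was -0.08 for IR against sham in the scar zone, and PLIN4 0.10 between zones, or 0.12 with the replicate block; the cause was not tested. Leaving out each pig gave, for IR against sham in the scar zone, -0.18 to 0.08 (CIDEC), -0.11 to 0.19 (FABP4) and -0.67 to 0.22 (LIPE). In the border zone it gave -0.23 to 0.16 (PLIN4), -0.07 to 0.33 (FABP4), -0.38 to 0.37 (SCD) and -0.43 to 0.61 (LIPE). Between zones it gave -0.20 to 0.04 (PLIN4), -0.04 to 0.14 (CIDEC), -0.18 to 0.06 (SCD) and -0.19 to 0.04 (LIPE).

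Members past an unadjusted exact p of 0.05 within pigs numbered 2, between 1 and 2 without each pig in turn, and 0 without pigs 9 and 11. FABP4 was among them without each single pig, at p of 0.0156 to 0.0469. Relations with ADIPOQ past adjustment numbered 1, and by Pearson's r 0 on log2(TPM + 0.1), where PLIN4 had r = -0.789 in the scar zone (exact permutation p = 0.0195, adjusted 0.352) but Spearman rho = -0.929 (exact permutation p = 0.00223, adjusted 0.0402). Without pigs 9 and 11 only SCD in the scar zone met the limit, with a positive r and an adjusted exact permutation p of 0.05. Between-zone relations past adjustment numbered 0, 2 on log2(TPM + 0.1) (FABP4 and LIPE), and 2 as deviations from group means (SCD and LIPE, adjusted exact permutation p = 0.0255 each), and 3 without pigs 9 and 11.

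Over all genes, DESeq2 called 52 for IR against sham in the scar zone (edgeR 0, limma 3 and 1) and 2 in the border zone, 4 and 1 between zones in IR and sham pigs (edgeR 0 and 0, limma on log2(TPM + 1) 2 and 1), and 160 and 34 between sexes (edgeR 12 and 11); the replicate block called 2 between zones over all pigs. With an unadjusted p and a fold change of 2, counts were 470, 109, 250, 14, 73, 196, 340 and 199. TPM scaling with a pseudocount of 1 put the median of all genes at 0.149 (scar zone, IR against sham), 0.126 (zones, IR pigs), 0.117 (zone dependence) and -0.177 (sexes, scar zone). Depth limits PLIN1, LEP and PCK1, at no more than 12 counts a library, and ADIPOQ, under 10 counts in 9 of 16.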
